A study of Homo sapiens with 12 samples.

Results

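The vacuolar proton pump (V-ATPase) genes were followed in an m7G map of prostate cancer cells. They were 10 Ensembl gene IDs among 18569 in all, listed by ID with the symbols ATP6V1A, ATP6V1B2, ATP6V1E1, ATP6V1H, ATP6V0B, ATP6V0C, ATP6V0D1, ATP6V0E1, ATP6AP1 and ATP6AP2. As a list they were chosen by gene family, with the read counts of shMETTL1 and shscramble libraries per ID and per position already in view. Values in that comparison, its interaction with input and its position counts are therefore a description. The numbers of members past a call rule there are printed beside the share of all gene IDs, and nothing is read from them. The 10 IDs held 801 of the 842183 positions in the deposited tables.

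LNCaP-AI cells are a castration-resistant prostate cancer line derived from LNCaP and kept under androgen deprivation, which every group shared. METTL1, the methyltransferase that writes internal m7G, was stably silenced with a short hairpin RNA in the shMETTL1 group, and the control group carried a scrambled hairpin (shscramble). Each group had 3 replicates, and from each replicate an AlkAniline-Seq library of internal m7G and an input library were made, 12 libraries in all. AlkAniline-Seq breaks the RNA chain next to m7G and sequences the ends this leaves, so that a modified base appears as reads ending at one place. A gene's value here is the sum of the reads over its positions, given as CPM (counts relative to the library total) with TMM factors, which correct library sizes for a few genes that take many reads.

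The V-ATPase is a rotary pump that uses ATP to move protons into lysosomes, endosomes and secretory vesicles. Its V1 sector in the cytosol splits ATP, its V0 sector in the membrane carries the protons, and the accessory proteins ATP6AP1 and ATP6AP2 help the pump to assemble. By acidifying lysosomes it serves protein breakdown, receptor recycling and nutrient sensing. The IDs fell into 4 V1 genes, 4 V0 genes and 2 accessory genes.

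The hairpin is shown because it defines the knockdown group. It is listed among the study's sequences as a pair of stretches, given here 5′ to 3′, and the capitals mark the 21 bases that are complementary between them. The METTL1 gene lies on chromosome 12.
shMETTL1 first stretch: GGAATGTAGTCCATCTAAACTcg
shMETTL1 second stretch: aaAGTTTAGATGGACTACATTCC

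AlkAniline-Seq counts summed to 2474464 to 2764417 per library in shMETTL1 and 1421551 to 2624431 in shscramble, and input counts to 2783709 to 3258499 in shMETTL1 and 3045523 to 3152800 in shscramble. METTL1 itself and markers of the cell type could not be looked up, because the tables give Ensembl IDs and no table used here pairs these with symbols. One library stood apart. Shscramble replicate 1 had reads at all 29 member positions that carried 50 or more reads in shscramble replicate 2 or 3, counted once for each library. For all gene IDs it had reads at 99.9% or more of such positions, against 31.1% to 63.4% between the other 28 ordered pairs of AlkAniline-Seq libraries. At the 28 distinct member positions concerned its median was 8 reads (5 to 49), and they made up 369 of its 1598 member reads. Values without this library are given for the members' median, for the genes whose groups separate and for the comparison with input in shscramble.

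Over the 10 genes together, AlkAniline-Seq reads summed to 1089, 1283 and 1159 CPM in shMETTL1 replicates 1, 2 and 3, against 879, 1106 and 990.2 CPM in the shscramble replicates. The means were 1177 ± 98.2 CPM in shMETTL1 and 992 ± 114 CPM in shscramble (SD, n = 3 each), and the groups overlapped. Input reads averaged 1364 ± 274 CPM in shMETTL1 and 1661 ± 311 CPM in shscramble (SD, n = 3 each), and overlapped too. In AlkAniline-Seq the log2 fold change of shMETTL1 over shscramble was above 0 for 7 genes and below 0 for 3, with a median of 0.43, beside a median of 0.07 over all 11097 gene IDs tested. The median was 0.38 without shscramble replicate 1, and 6 genes were above 0. In the input 3 genes were above 0 and 7 below, with a median of -0.07, beside -0.04 over all gene IDs. With library sizes alone as the scaling, without TMM factors, 6 genes were above 0 in the input, and the median was 0.25 beside 0.22 over all gene IDs.

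As a description, 0 of the 10 genes were past an adjusted p of 0.05 by edgeR's quasi-likelihood test in AlkAniline-Seq, as were 0.00901% of all gene IDs. At an unadjusted p under 0.05 edgeR again had 0 members, against 6.97% of gene IDs, and DESeq2 called 0 members, against 1.63%. In the input edgeR called 0 members, with a background of 0%, and 0 at an unadjusted p under 0.05 (6.26% of gene IDs). DESeq2 called 0 members of the input as well, against 0.305%. The coefficient of variation between replicates was 0.90 for AlkAniline-Seq and 0.81 for input. The labels do not say that replicates were separate cultures, and p-values measure only the spread between these libraries. An exact permutation test of 3 libraries against 3 has 0.1 as its smallest p. In bulk libraries fewer cells with a transcript and less of it per cell cannot be told apart.

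**Figure D1:**
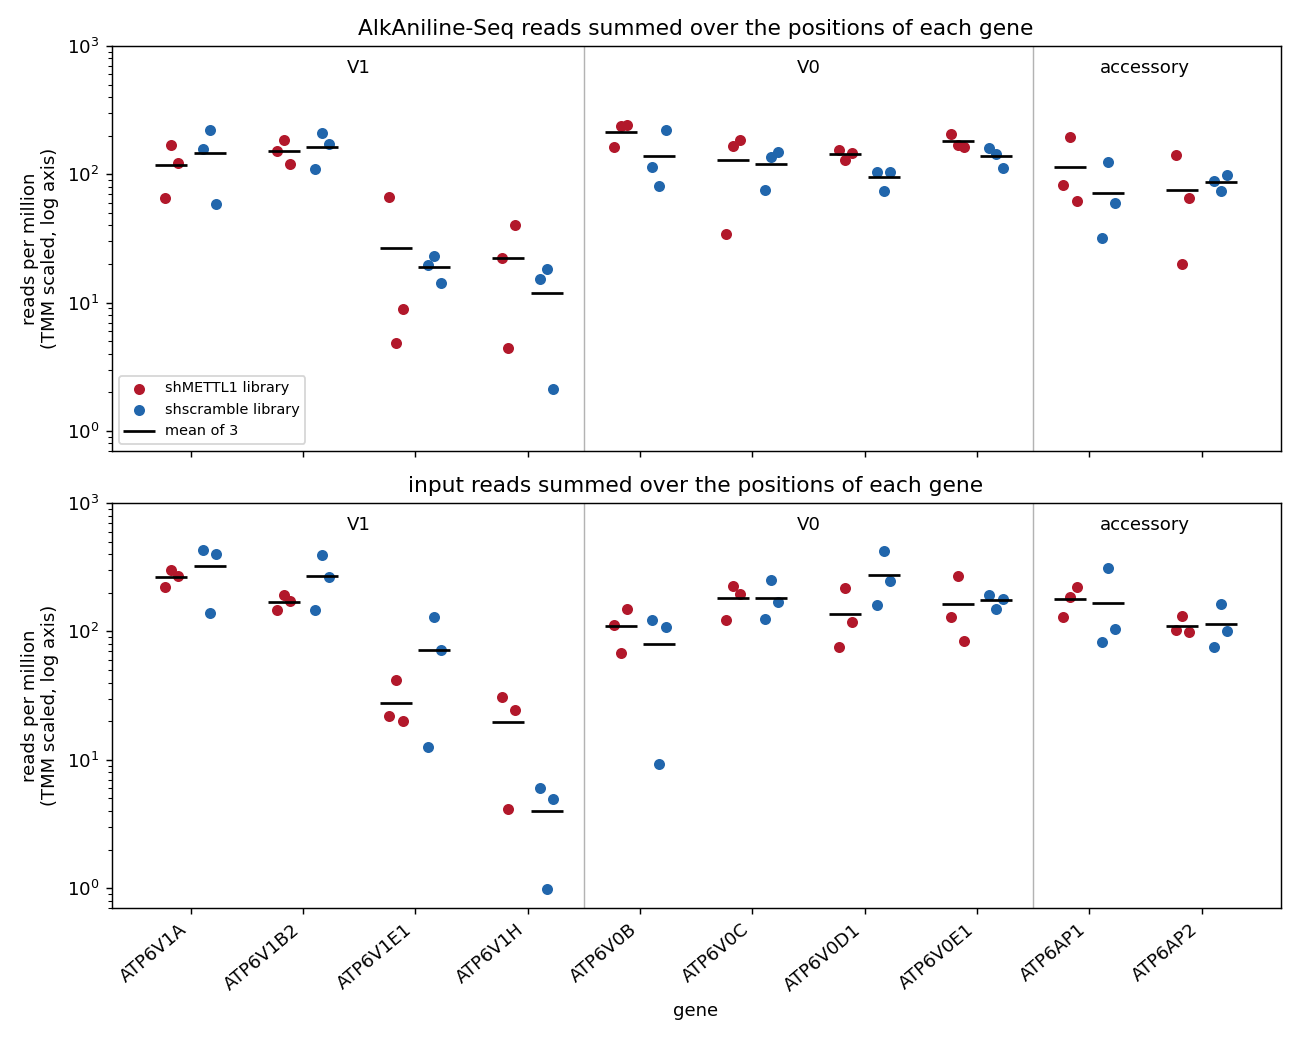
CPM (TMM scaled, log axis) of each proton pump gene in every library, AlkAniline-Seq in the upper panel and input in the lower, with shMETTL1 points left of shscramble points and a bar at the mean of 3. The groups separate in AlkAniline-Seq for ATP6V0D1 and ATP6V0E1 (the second only with TMM factors), and for no gene in the input.

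ATP6V1A (ENSG00000114573) encodes the catalytic subunit, where ATP is bound and split. Its AlkAniline-Seq reads came to 65.6, 168 and 123 CPM in the shMETTL1 replicates, against 158, 219.8 and 58.9 CPM in the shscramble replicates. The groups overlapped, with the lowest value in shscramble replicate 3 and the highest in shscramble replicate 2. The log2 fold change was -0.30 with a standard error of 0.59. In the input ATP6V1A had 223, 301 and 269 CPM in shMETTL1, against 428, 139 and 402 CPM in shscramble, so that the shscramble libraries lay on either side of all 3 shMETTL1 libraries.

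ATP6V1B2 (ENSG00000147416) encodes the B subunit that alternates with the catalytic subunit in the V1 ring. It had 151, 185 and 120.4 CPM in the shMETTL1 AlkAniline-Seq libraries, against 110.0, 209.7 and 172 CPM in the shscramble libraries, a log2 fold change of -0.11 (standard error 0.47). Its input reads were 146, 194 and 172 CPM in shMETTL1, against 146, 395 and 265 CPM in shscramble. The input log2 fold change was -0.65 (standard error 0.44), and shscramble replicate 1 stood at the level of the lowest shMETTL1 library.

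ATP6V1E1 (ENSG00000131100), a subunit of the stalk that holds the ring in place, had 1 shMETTL1 library far from the others in AlkAniline-Seq. It had 66.7, 4.87 and 8.97 CPM in shMETTL1 AlkAniline-Seq, against 19.8, 22.9 and 14.2 CPM in shscramble. One shMETTL1 library was above and the other two were below every shscramble library, and the log2 fold change was 0.50 with a standard error of 1.39, or -1.43 without shMETTL1 replicate 1. In the input it had 22.1, 41.6 and 20.2 CPM in shMETTL1, against 12.7, 129.7 and 71.9 CPM in shscramble (log2 fold change -1.35, standard error 0.91).

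ATP6V1H (ENSG00000047249) encodes a regulatory subunit of V1 and rested on few reads. AlkAniline-Seq gave 57, 11 and 94 reads in shMETTL1, against 28, 49 and 3 reads in shscramble, and input gave 118, 14 and 74 reads in shMETTL1, against 19, 2 and 16 reads in shscramble. The input log2 fold change of 2.28 had a standard error of 1.31, and shMETTL1 replicate 2 lay below 2 of the shscramble libraries in CPM. Summed over the 4 V1 genes, input reads were 421, 541 and 486 CPM in shMETTL1, against 592, 664 and 744 CPM in shscramble. The groups of this sum did not overlap (483 ± 59.8 CPM in shMETTL1 and 667 ± 75.8 CPM in shscramble, SD, n = 3 each), while the AlkAniline-Seq sums did (320.1 ± 36.7 CPM and 340.4 ± 116 CPM in shMETTL1 and shscramble, SD, n = 3 each). With library sizes alone the input sums overlapped, at 498, 575 and 528 CPM in shMETTL1 and 593, 439 and 784 CPM in shscramble. No single V1 gene separated the groups in the input, where 5.84% of gene IDs were lower in every shMETTL1 library and 7.64% were higher.

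Among the V0 genes ATP6V0D1 (ENSG00000159720), which links the rotor of V1 to the membrane ring, had 155, 129.5 and 145 CPM in shMETTL1 AlkAniline-Seq, against 105, 74.3 and 104 CPM in shscramble. ATP6V0E1 (ENSG00000113732), a small membrane subunit, had 207, 171 and 164 CPM in shMETTL1, against 162, 145 and 113 CPM in shscramble. In both genes every shMETTL1 library lay above every shscramble library. These 2 of 10 genes compare with 7.1% of gene IDs that separated this way, and 0 of 10 were lower in every shMETTL1 library, against 7.38%. The log2 fold changes were 0.60 (standard error 0.53) for ATP6V0D1 and 0.37 (standard error 0.45) for ATP6V0E1. With the highest position per gene they were -0.21 for ATP6V0D1, the opposite sign, and 0.61 for ATP6V0E1. With all positions summed but without shscramble replicate 1 they were 0.68 for ATP6V0D1 and 0.48 for ATP6V0E1. With library sizes alone ATP6V0D1 still separated the groups, with a lowest shMETTL1 value of 115 CPM and a highest shscramble value of 110.4 CPM. ATP6V0E1 did not, at 211, 152 and 156 CPM in shMETTL1 and 169.9, 147 and 112 CPM in shscramble.

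Input reads of ATP6V0D1 differed the other way, at 75.6, 218 and 119 CPM in shMETTL1 and 160.3, 425 and 248 CPM in shscramble, and these groups overlapped (log2 fold change -1.01, standard error 0.50). The difference of the AlkAniline-Seq and input fold changes, an interaction over the 12 libraries, was 1.76 (standard error 0.73) for ATP6V0D1. It ranged from 1.11 to 2.35 when single replicates were left out. By limma on the share of coverage it was 0.50 and with the highest position per gene 0.96, and without shscramble replicate 1 it was 2.01. For the count alone, edgeR called 0 members for this interaction (background 0.00777%), 1 member had an unadjusted p under 0.05 (background 8.35%), and DESeq2 called 0 (background 0.753%). ATP6V0E1 had 131, 272 and 84.3 CPM of input in shMETTL1, against 194, 149 and 179.7 CPM in shscramble, and the shMETTL1 libraries lay on either side of the control libraries.

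ATP6V0B (ENSG00000117410) and ATP6V0C (ENSG00000185883) encode proteolipid subunits of the rotating membrane ring that carries the protons. ATP6V0B had 163, 239 and 243 CPM in shMETTL1 AlkAniline-Seq, against 113, 81.8 and 219 CPM in shscramble (log2 fold change 0.64, standard error 0.48). Only shscramble replicate 3 overlapped the shMETTL1 libraries. Its input was 112, 67.4 and 151 CPM in shMETTL1, against 122, 9.33 and 109 CPM in shscramble, where replicate 2 held 19 reads.

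ATP6V0C had 34.3, 166 and 186 CPM in shMETTL1 AlkAniline-Seq, against 74.8, 135 and 149 CPM in shscramble, and the log2 fold change was 0.10 (standard error 0.63). Both input means were 182 CPM (SD 53.0 in shMETTL1 and 64.0 in shscramble, n = 3 each). RefSeq names 4 pseudogenes each of ATP6V0C and ATP6V0E1 and 3 of ATP6V1E1, and how reads that match several copies were placed is not given in the sources used here, so the counts of these genes are uncertain to that extent. The V0 genes summed to 667 ± 95.3 CPM in shMETTL1 AlkAniline-Seq and 492 ± 81.3 CPM in shscramble (SD, n = 3 each). The groups of that sum overlapped.

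ATP6AP1 (ENSG00000071553) encodes a glycoprotein bound to the V0 sector. It had 81.9, 196 and 62.4 CPM in shMETTL1 AlkAniline-Seq, against 31.9, 125 and 59.6 CPM in shscramble, and the log2 fold change was 0.65 with a standard error of 0.71. Replicate 2 was the highest library of each group. Without shscramble replicate 1, the lowest library, the log2 fold change was 0.29. Its input read 129, 186 and 222 CPM in shMETTL1, against 82.4, 310.0 and 105 CPM in shscramble.

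ATP6AP2 (ENSG00000182220), known also as the prorenin receptor, had 142, 19.9 and 65.8 CPM in shMETTL1 AlkAniline-Seq, against 88.5, 74.3 and 98.0 CPM in shscramble. The shMETTL1 libraries spread on both sides of the control libraries (75.9 ± 61.7 CPM in shMETTL1 and 86.9 ± 11.9 CPM in shscramble, SD, n = 3 each). Its input averaged 111 ± 17.7 CPM in shMETTL1 and 114 ± 46.1 CPM in shscramble (SD, n = 3 each).

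AlkAniline-Seq was next set against input within each group. The list was not drawn from this comparison, but it was chosen with earlier results of these same libraries known. Its p-values are therefore not an independent test. The main fit did not pair an AlkAniline-Seq library with the input of the same replicate. In shMETTL1 the log2 of AlkAniline-Seq over input was below 0 for 7 genes and above 0 for 3, with a median of -0.20, beside 0.17 over the 12877 gene IDs tested. In shscramble it was below 0 for 8 genes, with a median of -0.90, beside -0.08 over all gene IDs. Without shscramble replicate 1 that median was -0.849, beside 0.062 over all gene IDs. The genes above 0 in shscramble were ATP6V0B and ATP6V1H. With library sizes alone the median of all gene IDs moved to 0.04 in shMETTL1 and 0.30 in shscramble, and that of the members to -0.29 in shMETTL1 and -0.41 in shscramble. With each AlkAniline-Seq library paired with its own input, the members' median was -0.566 in shMETTL1 and -0.853 in shscramble. Over all gene IDs the paired medians were -0.183 in shMETTL1 and 0.061 in shscramble.

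ATP6V0D1 in shscramble had the smallest p of the members in this comparison. On one scaling of the 12 libraries its AlkAniline-Seq over input ratio was 1.99, 0.549 and 1.13 in the shMETTL1 replicates, against 0.579, 0.141 and 0.370 in the shscramble replicates. In shscramble all 3 AlkAniline-Seq libraries lay below all 3 input libraries. The log2 ratio was -0.04 (standard error 0.51, adjusted p = 0.99 from edgeR) in shMETTL1 and -1.80 (standard error 0.53, adjusted p = 0.13 from edgeR) in shscramble. DESeq2 gave -1.92 in shscramble with an adjusted p of 0.033, and the adjusted p ranged from 0.033 to 0.55 over the 11 alternatives. The highest came without shscramble replicate 2, where the log2 ratio was -1.16. Without shscramble replicate 1 it was -2.06 (adjusted p = 0.34 from edgeR). With each library paired with its own input it was -1.67 (adjusted p = 0.26 from edgeR).

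ATP6V1A lay below input in both groups. Its ratios were 0.284, 0.515 and 0.422 in shMETTL1, where no AlkAniline-Seq library reached an input library, against 0.327, 1.27 and 0.129 in shscramble. The log2 ratio was -1.25 (standard error 0.52, adjusted p = 0.52 from edgeR) in shMETTL1 and -1.35 (standard error 0.52, adjusted p = 0.27 from edgeR) in shscramble. When each gene was represented by its highest position in each library, ATP6V1A passed the edgeR test in both groups. The log2 ratio was then -2.65 (adjusted p = 0.010 from edgeR) in shMETTL1, where 159 of 12343 gene IDs were called. In shscramble it was -2.10 (adjusted p = 0.043 from edgeR), where 210 of 12343 gene IDs were called. With all positions summed but without shscramble replicate 1 the log2 ratio in shscramble was -1.08 (adjusted p = 0.59 from edgeR). Over the 11 alternatives the adjusted p ranged from 0.010 to 0.90 in shMETTL1 and from 0.043 to 0.59 in shscramble.

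ATP6AP1 had ratios of 0.612, 0.977 and 0.260 in shMETTL1, against 0.342, 0.324 and 0.498 in shscramble, below 1 in 6 of 6 replicates. Its log2 ratio was -0.75 (standard error 0.64, adjusted p = 0.82 from edgeR) in shMETTL1 and -1.46 (standard error 0.65, adjusted p = 0.34 from edgeR) in shscramble, where it was -1.31 without shscramble replicate 1. ATP6V0B stood on the other side, with ratios of 1.41, 3.28 and 1.49 in shMETTL1, against 0.820, 7.06 and 1.78 in shscramble. All 3 shMETTL1 AlkAniline-Seq libraries of ATP6V0B lay above all 3 input libraries, and the log2 ratio was 0.88 (standard error 0.67, adjusted p = 0.80 from edgeR) in shMETTL1 and 0.59 (standard error 0.67, adjusted p = 0.74 from edgeR) in shscramble. Without shscramble replicate 1 the log2 ratio of ATP6V0B in shscramble was 1.20.

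By edgeR 0 of the 10 genes were called against input in shMETTL1, where 0.21% of gene IDs were called, and 1 had an unadjusted p under 0.05 (8.27% of gene IDs). In shscramble 0 were called (background 0.637%) and 3 had an unadjusted p under 0.05 (background 13.2%). Without shscramble replicate 1 the 3 became 1, ATP6V0D1 (background 10.2%). DESeq2 called 0 members in shMETTL1 (background 0.888%) and 1, ATP6V0D1, in shscramble (background 4.53%). In shMETTL1 1 gene, ATP6V1A, separated below input (background 9.57%) and 1, ATP6V0B, above it (background 8.76%). In shscramble ATP6V0D1 and ATP6V0E1 separated below input (background 9.25%) and 0 genes above it (background 8.64%). The log2 ratio of ATP6V0E1 in shscramble was -0.54, and -0.49 without shscramble replicate 1. With library sizes alone ATP6V0E1 overlapped input in shscramble and ATP6V1B2 lay below it in shMETTL1, and the other 3 separations held. The other members had log2 ratios from -0.64 to 0.09 in shMETTL1 and from -2.17 to 1.37 in shscramble, and the ends of the shscramble range, ATP6V1E1 and ATP6V1H, had standard errors above 1.

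**Figure D2:**
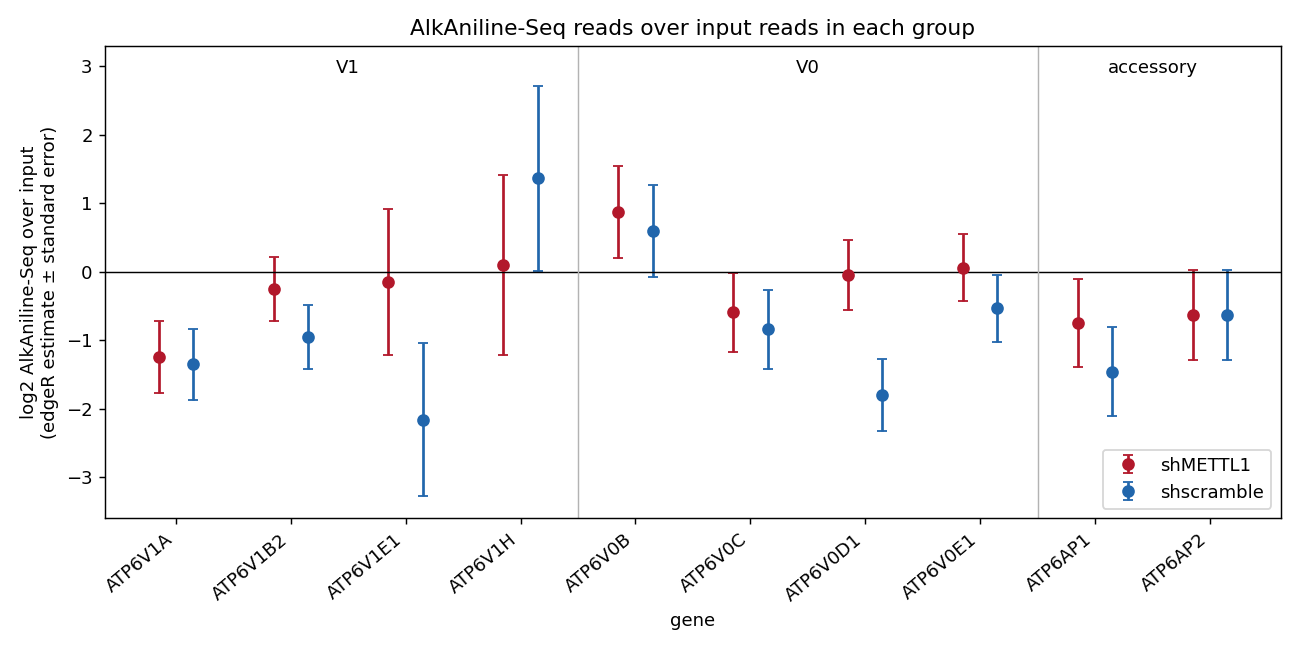
Log2 of AlkAniline-Seq over input reads for each proton pump gene, as the edgeR estimate with its standard error over 12 libraries, with shMETTL1 left of shscramble. ATP6V0D1 stands at -1.80 in shscramble and at -0.04 in shMETTL1, and ATP6V1A lies below 0 in both groups.

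The reads of each gene came from few positions, and AlkAniline-Seq libraries seldom agreed on which. Of the 801 positions 402 had a read in some AlkAniline-Seq library. Of these 209 (52.0%) were read in exactly 1 library, against 62.9% of positions over all gene IDs, and 6 were read in all 6, against 7675 of 404685 over all gene IDs. In the input 670 member positions were read, and 27 of them (4.03%) were read in all 6 libraries, against 1.99% over all gene IDs. Of the 402 positions 271 (67.4%) also had an input read, against 50.9% over all gene IDs.

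Positions read in 1 AlkAniline-Seq library held 23.0%, 28.3% and 30.4% of the members' reads in the shMETTL1 replicates, against 19.4%, 2.37% and 2.29% in the shscramble replicates. The low values belong to the 2 libraries whose deep positions shscramble replicate 1 shares. Over all gene IDs the shares were 30.6%, 26.1% and 26.8% in shMETTL1, against 20.0%, 3.65% and 3.71% in shscramble.

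**Figure D3:**
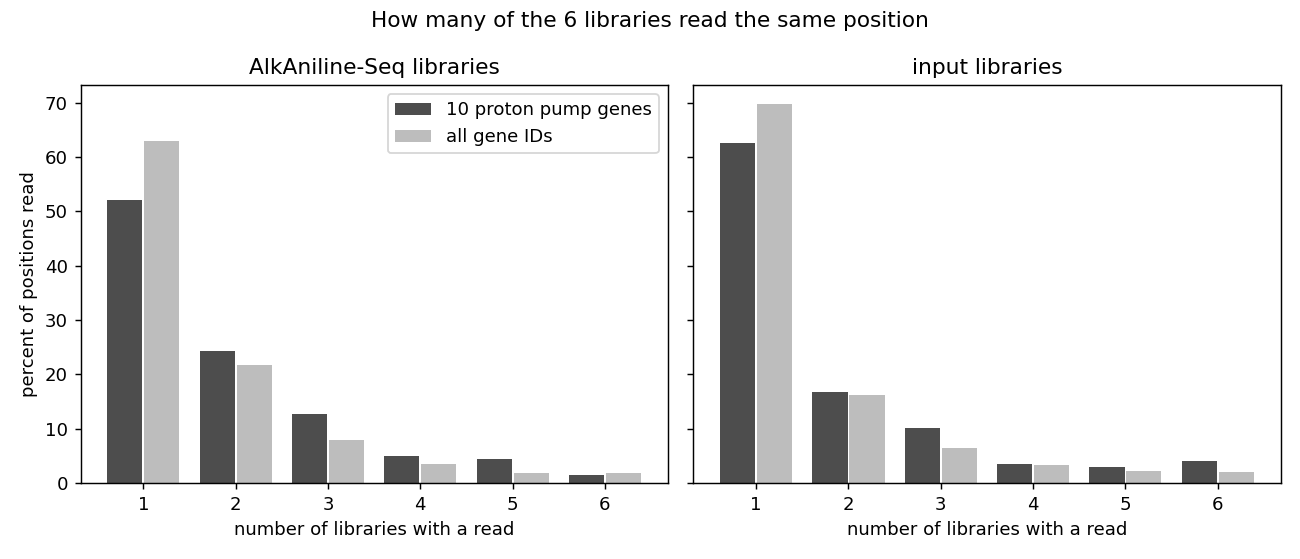
Percent of positions read (vertical axis) against the number of libraries with a read at the position (horizontal axis), AlkAniline-Seq on the left and input on the right, for the proton pump genes (dark bars) and all gene IDs (light bars). Positions read in a single AlkAniline-Seq library make up 52.0% for the pump genes and 62.9% for all gene IDs.

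ATP6V1A had 1 dominant position, the most read in both assays. It held 69, 11 and 124 AlkAniline-Seq reads in shMETTL1, against 49, 313 and 74 in shscramble, and 453, 628 and 574 input reads in shMETTL1, against 1017, 255 and 914 in shscramble. This position was the top one in all 6 input libraries, with 52.8% to 90.1% of the gene's reads, and in 4 of 6 AlkAniline-Seq libraries. ATP6V0E1 likewise had the same top input position in all 6 libraries, with 26.2% to 95.1% of its reads. There AlkAniline-Seq counted 1, 6 and 264 reads in shMETTL1, against 66, 2 and 5 in shscramble, so that 1 library of each group held nearly all of them. In ATP6V1B2 the top input position was shared by 5 of 6 libraries.

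For 5 genes, ATP6AP1, ATP6V0B, ATP6V0D1, ATP6V1E1 and ATP6V1H, the top AlkAniline-Seq position differed in all 6 libraries. The most read position of ATP6V1E1 had 58 reads in shMETTL1 replicate 1 and 0 in the other 5 libraries, and that of ATP6V1H had 74 in shMETTL1 replicate 3 and 0 elsewhere. These single positions carried 58 of the 171 reads of ATP6V1E1 and 74 of the 94 reads of ATP6V1H in those libraries. The same was seen less sharply in ATP6V0C, with 0, 0 and 172 reads in shMETTL1, against 6, 1 and 48 in shscramble. ATP6AP2 had 140, 0 and 2 reads at its leading position in shMETTL1, against 21, 113 and 14 in shscramble, and ATP6V0D1 had 5, 0 and 88 in shMETTL1, against 7, 25 and 13 in shscramble.

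At other leading positions the reads were spread over more libraries. ATP6V1B2 had 68, 2 and 99 reads in shMETTL1, against 17, 74 and 38 in shscramble, with at most 20 input reads in any library. ATP6V0B had 80, 114 and 9 reads in shMETTL1, against 6, 12 and 0 in shscramble (log2 fold change 3.55, standard error 2.07). The leading position of ATP6AP1 had 50, 144 and 18 reads in shMETTL1, against 2, 6 and 0 in shscramble, and the groups did not overlap. Leading positions were picked by their summed AlkAniline-Seq reads, so nothing is read from this separation. The share of all positions that separate this way was not counted. AlkAniline-Seq coverage of the ATP6AP1 position was 162, 241 and 240 in shMETTL1, against 34, 166 and 61 in shscramble. Its input counts there were 53, 97 and 105 in shMETTL1, against 25, 3 and 94 in shscramble, and the log2 fold change in AlkAniline-Seq was 4.78 with a standard error of 2.14.

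**Figure D4:**
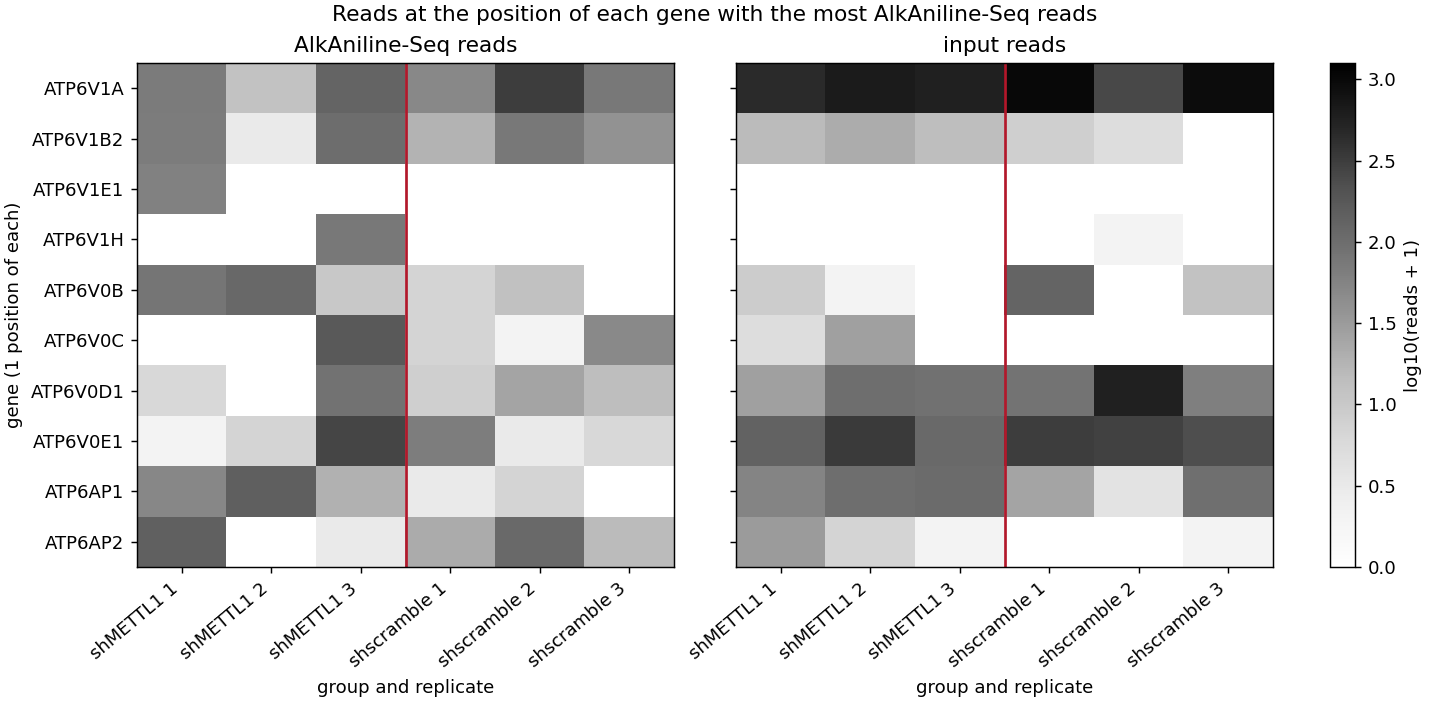
Reads in each library at the position of each proton pump gene with the most AlkAniline-Seq reads, as a grey scale of log10(reads + 1), AlkAniline-Seq on the left and input on the right, shMETTL1 before the red line and shscramble after it. ATP6V1A has reads in all 12 libraries, with the fewest, 11, in the AlkAniline-Seq library of shMETTL1 replicate 2. The positions of ATP6V1E1 and ATP6V1H are dark in 1 AlkAniline-Seq library each.

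Fitted one by one, and again as a description, 19 member positions had enough reads. EdgeR called 0 of them after adjustment over 13973 positions (background 0%), and 2 had an unadjusted p under 0.05 (background 8.19%). DESeq2 called these 2 (background 5.29%), the leading position of ATP6AP1, with more reads in shMETTL1, and a position of ATP6V1B2, with fewer. The ATP6V1B2 position had 1, 1 and 3 AlkAniline-Seq reads in shMETTL1, against 41, 23 and 115 in shscramble. Its input was 134, 212 and 163 reads in shMETTL1, against 154, 358 and 220 in shscramble, and it was the position of this gene with the most input reads. The log2 fold change in AlkAniline-Seq was -5.42 with a standard error of 2.06. Without shscramble replicate 3 edgeR called 5 of 38 member positions, all lower in shMETTL1 and none of them among the 19. At that setting 5644 of 29677 positions over all gene IDs were called (19%). In shscramble replicates 1 and 2 the 5 positions had 8 and 63, 7 and 75, 7 and 23, 12 and 68, and 7 and 76 reads. They rested on these libraries, and replicate 1 shares the deep positions of replicate 2, so nothing is read from them.

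The study's own thresholds for altered m7G were applied here to the fold over input. This fold is the share of covering reads that end at a position divided by the same share in the input. The paper does not say which measure its thresholds were set on, so this measure was chosen here. Where the input share is 0 the deposited fold is the position's share plus 1, and where the position has no read it is 0. Where all folds of 1 group were 0, 1 was added to the other group's mean fold and that value was taken as the change. That rule was also chosen here. At a change of more than 1.5 and an unadjusted p under 0.05 by the methods' t-test, 7 of the 402 member positions were called lower in shMETTL1. At the same thresholds 0 were called higher. Over all gene IDs the calls came to 1.05% of 404591 positions for lower and 0.203% for higher. The 7 positions lay in ATP6AP1 (2), ATP6V1A (2), ATP6V0B (1), ATP6V0E1 (1) and ATP6V1B2 (1). Every shMETTL1 fold was 0 at those of ATP6AP1, ATP6V0B and ATP6V0E1 and at 1 of ATP6V1A. A fold of 0 also arises where no read covers the position. Coverage in the shMETTL1 replicates was 0, 0 and 0 at the ATP6V0E1 position, and 62, 179 and 0 at that of ATP6V0B. At the ATP6AP1 positions it was 11, 0 and 67, and 156, 241 and 240. In libraries without covering reads m7G was not measured, so a fold of 0 there does not show a loss. The one in ATP6V1B2 is the position described above, with folds of 0.027, 0.244 and 0.077 in shMETTL1, against 0.779, 0.594 and 1.51 in shscramble.

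At the second position of this set, in ATP6V1A, 8, 0 and 2 reads were counted in shMETTL1, against 22, 126 and 7 in shscramble, and its coverage in shMETTL1 replicate 2 was 7 reads. A further ATP6V1A position had 0 reads in every shMETTL1 library, against 6, 82 and 1 in shscramble, and its shMETTL1 coverage was 38, 0 and 0. In 3 of the 7 positions all shscramble folds were of the share plus 1 kind, with 0 input reads. In 5 of the 7 positions the weakest shscramble library held a single read. With single libraries left out the number of lower member positions ranged from 4 to 37 and that of higher ones from 0 to 5. The 37 were reached without shscramble replicate 3, where 8.3% of positions over all gene IDs were lower, and the 5 without shMETTL1 replicate 2, where 1.26% were higher. The 37 again rested on shscramble replicates 1 and 2, so nothing is read from them. Without shscramble replicate 1 there were 12 lower and 0 higher, beside 1.58% and 0.225% over all gene IDs.

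The reads at positions were also taken as a share of the coverage of each gene. The share of ATP6V0D1 was 15.6%, 4.96% and 14.1% in shMETTL1, against 7.71%, 7.20% and 9.16% in shscramble, and that of ATP6V0E1 was 3.54%, 2.51% and 4.91% in shMETTL1, against 3.69%, 3.12% and 2.37% in shscramble. The groups overlapped for all 10 genes in both assays, ATP6V0D1 and ATP6V0E1 included. Over all gene IDs 5.14% had a higher share of AlkAniline-Seq coverage in every shMETTL1 library and 7.15% a lower one.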

How the data were processed

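The deposited tables give, for each position and library, the authors' counts of reads at the position and counts of reads covering it (coverage), the count as a fraction of the coverage, and its ratio to the same fraction in the input (fold over input), which is the fraction plus 1 where the input fraction is 0, and 0 where there is no read. The tools in the submitters' processing notes are Bowtie2 2.2.4, cutadapt 1.9.1 and bedtools 2.24, with build hg19; for read filters and annotation the sources used here give nothing. Gene IDs stand in the same order in all 6 tables, which carry no coordinates, so positions were matched by row. Of the 10 IDs 0 were found in the RefSeq table of 59792 genes, which holds no Ensembl ID, and the symbols come from the list that defined the set. All 10 symbols are in RefSeq. Levels were not compared between genes, since no lengths were at hand.

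Counts were summed per ID and tested in R 4.3.3 with edgeR 4.0.16 (TMM, quasi-likelihood test, minimum count 10, minimum total 15, Benjamini-Hochberg over all IDs or positions tested), with AlkAniline-Seq over input as contrasts of a fit to 12 libraries. Alternatives were DESeq2 1.42.0, limma 3.58.1 (pseudocount 0.01), library sizes alone and no filter. Further ones were a replicate block, the highest position per gene and leaving out each replicate. A minimum of 2 libraries per position was chosen after seeing the data. The block was the replicate number in fits of 1 assay, and each replicate of each group in the fit to 12 libraries. Fits were tested on simulated data. Tables were handled in Python 3.11.15 with pandas 2.3.3, numpy 2.4.6, scipy 1.17.1 and matplotlib 3.10.9. All 10 genes were named, with the most read AlkAniline-Seq position of each and the positions past the study's thresholds, and positions called by DESeq2, input positions and positions that lead single libraries were added after their values were seen. The members and lists were chosen with earlier results of these data known. Lists of other pump subunits, assembly factors, lysosomal genes and cell type markers were not analysed, since their symbols could not be paired with IDs. Replicates of the same number in shMETTL1 and shscramble did not deviate together (correlations from -0.0135 to 0.017 in AlkAniline-Seq and from -0.025 to 0.0508 in input), so the number was not taken as a pairing of these groups. Pairing of an AlkAniline-Seq library with its own input was left out of the main fit and entered only in alternatives.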

Additional observations from a re-analysis of the deposited data

How the results depend on the processing

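No member was called for shMETTL1 against shscramble per gene, or for its interaction with input, under any alternative. The 6 AlkAniline-Seq libraries shared few positions, and what sets this was not tested. In AlkAniline-Seq 1 gene ID was called, and 2 with library sizes alone, 178 by DESeq2, 19 without the filter, 0 with the highest position per gene, 0 with positions read in at least 2 libraries and 0 to 3 with a replicate left out. In the input 0 were called, 35 by DESeq2 and 95 without the filter. For the interaction 1 was called, 95 by DESeq2, 31 without the filter, 2 by limma on the share of coverage and 0 to 1 with a replicate left out. For AlkAniline-Seq over input in shMETTL1 27 were called, 57 with library sizes alone, 112 by DESeq2, 104 without the filter, 159 with the highest position and 1 to 82 with a replicate left out, the 82 without shscramble replicate 2. In shscramble 82 were called, 571 by DESeq2, 266 without the filter, 210 with the highest position and 17 to 75 with a replicate left out, the 17 without shscramble replicate 1. Over positions 0 were called, 713 by DESeq2, 5 without the filter, 5051 by the methods' t-test at the study's thresholds and 3 to 5644 with a replicate left out, the 5644 without shscramble replicate 3. The cause was not tested in any of these.

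With the replicate number as a block, 3 gene IDs were called in AlkAniline-Seq, 2 in the input, and 6 positions. The members' median in AlkAniline-Seq was 0.15 against 0.43 without the block. In the fit to 12 libraries the block was each replicate of each group, which pairs an AlkAniline-Seq library with its own input. It called 1 gene ID for the interaction, against 1 without it. Over input it called 69 in shMETTL1, against 27, and 119 in shscramble, against 82. No member was called with either block. The members' median interaction of 0.44 became -0.049 with library sizes alone, where the median of all gene IDs moved to -0.28 against 0.24, and -0.37 by limma on the share of coverage. In shMETTL1 4 members changed sign over input, none of them called under any of the alternatives. ATP6V0D1 was at -0.04, at 0.10 with the replicate block and from -0.42 to 0.53 with a replicate left out, above 0 without shMETTL1 replicate 2. ATP6V0E1 was at 0.06, at -0.044 with library sizes alone, -0.0080 without the filter, -0.30 with the highest position and from -0.21 to 0.71 with a replicate left out, below 0 without shMETTL1 replicate 1 or 3. ATP6V1E1 was at -0.15, and from -2.27 to 0.76 with a replicate left out, above 0 without shMETTL1 replicate 2 or 3. ATP6V1H was at 0.09, at -0.054 with library sizes alone and from -0.44 to 0.52 with a replicate left out, below 0 without shMETTL1 replicate 3.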
